A study of Mus musculus with 7 samples.

Results

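The 10 genes described here act between the LH surge and expansion of the cumulus–oocyte complex, and they were measured in ovarian stromal tissue of PRKO mice, the line that carries the Pgrtm1Bwo null allele of the progesterone receptor gene *Pgr*. The genes were chosen by name: the EGF-like ligands *Areg*, *Ereg*, *Btc* and *Hbegf*, the receptor *Egfr*, and the matrix genes *Has2*, *Tnfaip6*, *Ptx3*, *Vcan* and *Cd44*. These 10 genes stand among 52230 genes matched in the transcript files and among 19233 genes with enough reads to be tested, and all 10 passed that filter. PGR +/+ mice (WT) and PGR -/- mice (KO) of the PRKO line, aged 21 to 27 days, received 5 IU eCG (PMSG), then 5 IU hCG 44 h later, and their ovaries were collected 8 h post-hCG. Ovaries were punctured to release granulosa cells, and mRNA was sequenced from the tissue left behind, pooled from 3 mice for each of 4 WT libraries (replicates 1 to 4) and 3 KO libraries (replicates 2 to 4). The null allele is present in all cells, so the comparison asks how these genes stand in stromal tissue of a whole-animal knockout.

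In the ovulating follicle, LH acts on mural granulosa cells, which make amphiregulin (*Areg*), epiregulin (*Ereg*) and betacellulin (*Btc*) as membrane-anchored precursors. Once shed, the ligands bind EGFR on granulosa and cumulus cells, and cumulus cells answer by making hyaluronan with the synthase HAS2. TNFAIP6 (TSG-6) transfers the heavy chains of inter-alpha-inhibitor onto hyaluronan, pentraxin 3 (*Ptx3*) helps to cross-link them, versican (*Vcan*) binds the polymer, and CD44 is its receptor at the cell surface.

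Reads assigned to transcripts ranged from 47.4 M to 63.4 M per library. *Pgr* itself was at 19.5, 31.0, 21.5 and 16.9 CPM (read counts scaled to library size with TMM factors) in WT replicates 1 to 4 and at 6.13, 6.52 and 7.56 CPM in KO replicates 2 to 4, lower in every KO library than in every WT library (logFC = −1.72, SE = 0.20, adjusted p = 0.0544 in edgeR's quasi-likelihood test and 3.8e-15 in DESeq2). The tissue label was checked against marker lists. Stromal fibroblast markers summed to 1710 to 2446 TPM in WT and 1749 to 2060 TPM in KO. Of these 7 genes, 2 were higher by mean in KO. Endothelial markers summed to 313 to 340 TPM in WT and 302 to 328 TPM in KO, with 2 of 6 higher. Leukocyte markers summed to 38.5 to 43.9 TPM in WT and 35.8 to 46.2 TPM in KO, with 4 of 9 higher. Granulosa cell markers were not absent: all 14 were detected, and *Inha*, which encodes the inhibin alpha subunit, reached 1669 to 2721 TPM (transcript abundance scaled for length and depth) across the 7 libraries. Summed TPM of the granulosa list was 2732 to 3816 in WT and 3356 to 4448 in KO, and that of the cumulus list, without *Ptx3*, was 164 to 237 in WT and 155 to 208 in KO. Oocyte markers summed to 291 to 413 TPM in WT and 384 to 525 TPM in KO, with 10 of 10 higher by mean in KO. Smooth muscle markers summed to 1482 to 1761 TPM in WT and 1081 to 1430 TPM in KO, with no overlap. Theca markers summed to 7661 to 9628 TPM in WT and 6706 to 8364 TPM in KO, with 7 of 7 lower by mean in KO. Surface epithelium markers summed to 16.6 to 33.3 TPM in WT and 13.2 to 20.2 TPM in KO, with 5 of 5 lower by mean in KO, and blood markers to 1148 to 1472 TPM in WT and 1224 to 2186 TPM in KO, with 5 of 5 higher. No marker gene in these lists was at 0 in any library. In such bulk tissue, fewer cells of a type and less RNA per cell cannot be told apart, and the part of these cell types in the values below was not tested.

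None of the 10 genes passed the thresholds for a differentially expressed gene (DEG), an adjusted p of at most 0.05 with an absolute logFC (the log2 fold change, KO over WT) of at least 0.5. This count of 0 was the same in edgeR, in DESeq2 and in limma-voom, and the background was low too: 0.0104% of all genes tested were called in edgeR, 0.816% in DESeq2 and 0.0104% in limma-voom. At an unadjusted p under 0.05, 3 of 10 genes stood out in each of the 3 tools, against a background of 8.94% of all genes in edgeR, 5.16% in DESeq2 and 8.73% in limma-voom. The edgeR and limma-voom shares are over 19233 genes filtered for low counts. In DESeq2 the 5.16% is over 32770 genes without that filter and the 0.816% over 17517, so the DESeq2 shares are not directly comparable with the others. The hyaluronan synthase gene *Has2* and the cross-linking factor gene *Ptx3* had the higher means in KO (background in that direction, 3.84%), and the ligand gene *Ereg* had the lower mean in KO (background, 5.1%). An absolute logFC of at least 0.5 was reached by 2 of 10, *Has2* and *Ptx3*, and by 6.65% of all genes. The median logFC of the 10 genes was 0.04, beside 0.00 over all genes tested, and 6 of 10 had a logFC above 0. Only *Has2* had CPM values that did not overlap between the genotypes, 1 of 10 against a background of 3.93% in that direction and 9.05% in either.

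**Figure D1:**
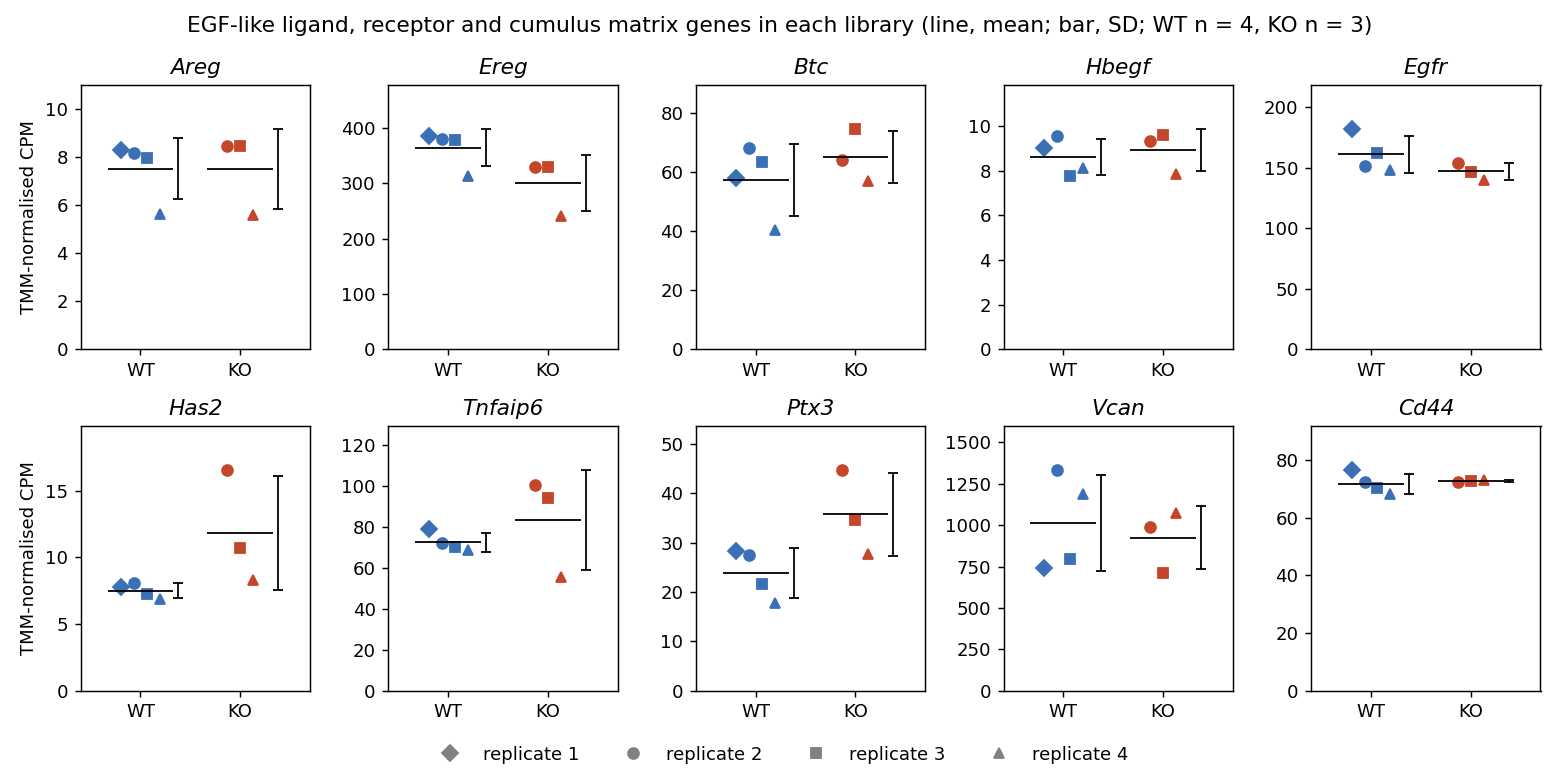
TMM-normalised CPM (vertical axes, each from 0) of the 10 genes in each library, by genotype (horizontal axes). Marker shape gives the replicate number, horizontal lines are group means and error bars are the SD (4 WT and 3 KO libraries). The 3 KO libraries lie above all WT libraries only for *Has2*, at 8.28 to 16.5 CPM against 6.85 to 8.11 CPM.

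On the length-corrected TPM scale, averaged over all 7 libraries, the 10 genes ordered as *Vcan* (178 TPM), *Ereg* (126 TPM), *Tnfaip6* (75.0 TPM), *Btc* (33.7 TPM), *Egfr* (28.1 TPM), *Cd44* (27.6 TPM), *Ptx3* (25.1 TPM), *Areg* (10.8 TPM), *Hbegf* (5.91 TPM) and *Has2* (3.42 TPM). The ranges over libraries of *Ereg* and *Tnfaip6*, of *Tnfaip6* and *Btc*, of *Ptx3* and *Areg*, and of *Areg* and *Hbegf* were separate. The other neighbours overlapped, although *Vcan* was above *Ereg* and *Hbegf* was above *Has2* in 7 of 7 libraries. Epiregulin was thus the most abundant ligand transcript of the 4, and the synthase that gives the cumulus matrix its backbone was the least abundant transcript of all 10.

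*Ereg*, *Areg* and *Btc* lie in a cluster on chromosome 5 (GRCm39). *Ereg* (chr5:91222157-91241505, plus strand) ends 45.9 kb before *Areg* (chr5:91287451-91296291, plus strand), and *Areg* ends 208.8 kb before *Btc* (chr5:91505120-91550883, minus strand). The 200 bases before the annotated transcription start are printed for the neighbours *Areg* and *Ereg*, which were low in the same libraries, and for *Ptx3* and *Tnfaip6*, which were both highest in the same KO library. Capitals mark letters of the motifs searched on both strands. These were the cyclic AMP response element TGACGTCA, its shorter core TGACG, the TATA motif TATAAA, the AP-1 motif TGANTCA, the box CCAAT, the GC box GGGCGG and the progesterone response element. The first contains the second on both strands.
Areg chr5:91287251-91287450 (+ strand): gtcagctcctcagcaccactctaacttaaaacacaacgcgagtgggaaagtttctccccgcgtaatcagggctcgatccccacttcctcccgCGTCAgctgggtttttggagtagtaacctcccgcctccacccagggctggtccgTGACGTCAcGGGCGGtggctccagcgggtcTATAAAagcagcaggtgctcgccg
Ereg chr5:91221957-91222156 (+ strand): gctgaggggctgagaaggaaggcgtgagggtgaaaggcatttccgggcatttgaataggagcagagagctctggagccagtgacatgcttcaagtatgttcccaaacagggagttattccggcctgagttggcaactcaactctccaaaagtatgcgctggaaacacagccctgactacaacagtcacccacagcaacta
Ptx3 chr3:66127131-66127330 (+ strand): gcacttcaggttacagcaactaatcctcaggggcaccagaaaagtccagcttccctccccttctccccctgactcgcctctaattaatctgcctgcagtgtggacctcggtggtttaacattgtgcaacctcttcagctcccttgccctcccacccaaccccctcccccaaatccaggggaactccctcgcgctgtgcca
Tnfaip6 chr2:51927798-51927997 (+ strand): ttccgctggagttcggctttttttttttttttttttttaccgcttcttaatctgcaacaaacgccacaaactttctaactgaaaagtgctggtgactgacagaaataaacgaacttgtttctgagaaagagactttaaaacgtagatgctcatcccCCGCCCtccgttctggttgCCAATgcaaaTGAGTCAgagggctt

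The *Areg* window held TGACGTCA 54 to 47 bases before the start, a letter run found in 1.6% of 21770 windows of the same length, as well as TGACG 108 to 104 bases before it (16.0% of windows), a GC box (34.8%) and TATAAA 24 to 19 bases before it (9.6%). The *Ereg* window, from the adjacent gene, held none of the motifs, and neither did the *Ptx3* window. *Tnfaip6* held the AP-1 motif 15 to 9 bases before the start (4.9%), CCAAT (32.3%) and a GC box. The progesterone response element, present in 0.2% of all windows, was in none of the 4 printed. A match describes letters in the window, and no binding was measured here.

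*Areg* encodes amphiregulin, a ligand of EGFR. Its normalised read count was 8.26, 8.17, 7.95 and 5.61 CPM in WT replicates 1 to 4. In KO replicates 2 to 4 it was 8.44, 8.46 and 5.57 CPM. The groups overlapped fully, and the same-numbered replicate 4 was the lowest library of both genotypes. WT averaged 7.50 ± 1.26 CPM and KO averaged 7.49 ± 1.66 CPM (SD, n = 4 and n = 3), a fold of 1.0 with a 95% interval of 0.747 to 1.34 (adjusted p = 0.999). The gene had 323 to 486 reads per library, so that counting alone gives an error of 5.6% where *Areg* had the fewest reads.

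*Ereg* encodes epiregulin, which binds EGFR and ERBB4. WT replicates 1 to 4 held 384, 380, 378 and 313 CPM. KO replicates 2 to 4 held 329, 329 and 241 CPM. KO was below the 3 highest WT libraries throughout, but WT replicate 4 lay below KO replicates 2 and 3, so the groups overlapped. WT averaged 364 ± 33.7 CPM and KO averaged 299.9 ± 50.7 CPM (SD, n = 4 and n = 3). The fold was 0.82 (95% interval 0.68 to 0.999, unadjusted p = 0.0491, adjusted p = 0.554, edgeR), and without KO replicate 4 the logFC went from −0.28 to −0.14 (unadjusted p = 0.168). With the granulosa marker covariate the logFC was −0.27 (unadjusted p = 0.0677), and the unadjusted p stayed under 0.05 in only 3 of 7 fits that left out a library.

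Because *Ereg* and *Areg* were low in the same libraries, their ratio within each library was looked at after the values were seen, and it has no test. The ratio of *Ereg* TPM to *Areg* TPM was 12.1, 12.1, 12.3 and 14.6 in WT replicates 1 to 4. It was 10.1, 10.1 and 11.2 in KO replicates 2 to 4. All 3 KO libraries were below all 4 WT libraries. How many gene pairs have ratios that separate the genotypes in this way was not computed. Of the 4 ratios computed, that of *Btc* to *Areg* (2.68 to 3.90) and that of *Has1* to *Has2* (10.8 to 16.0) overlapped between genotypes. That of *Egfr* to *Erbb2* did not overlap either, at 1.84 to 2.11 in WT and 1.64 to 1.75 in KO.

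*Btc*, which encodes betacellulin, was at 57.9, 68.2, 63.6 and 40.4 CPM in WT replicates 1 to 4 and at 64.1, 74.7 and 57.1 CPM in KO replicates 2 to 4. WT replicate 4 was the lowest library, and the groups overlapped. The fold was 1.14 (95% interval 0.874 to 1.47, adjusted p = 0.799). *Hbegf*, which encodes heparin-binding EGF-like growth factor, stayed between 7.77 and 9.61 CPM in all 7 libraries, averaging 8.61 ± 0.81 CPM in the WT group and 8.93 ± 0.93 CPM in the KO group (SD, n = 4 and n = 3). Its groups overlapped as well (fold 1.04, 95% interval 0.872 to 1.23, adjusted p = 0.929).

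*Egfr* (chr11:16702198-16868158, plus strand) encodes the receptor that these ligands share. It was at 182, 152, 162 and 149 CPM in WT replicates 1 to 4 and at 154, 147 and 140 CPM in KO replicates 2 to 4. KO lay at the low end of the WT range, with overlap, and WT replicate 1 was the highest library. The fold was 0.91 (95% interval 0.806 to 1.03, adjusted p = 0.671). The full-length transcript Egfr-201, with 28 exons and a product of 1210 residues, held 20.4 to 23.3 TPM. The shorter transcript Egfr-202 held 4.37 to 6.10 TPM in the 7 libraries. Neither was called.

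**Figure D2:**
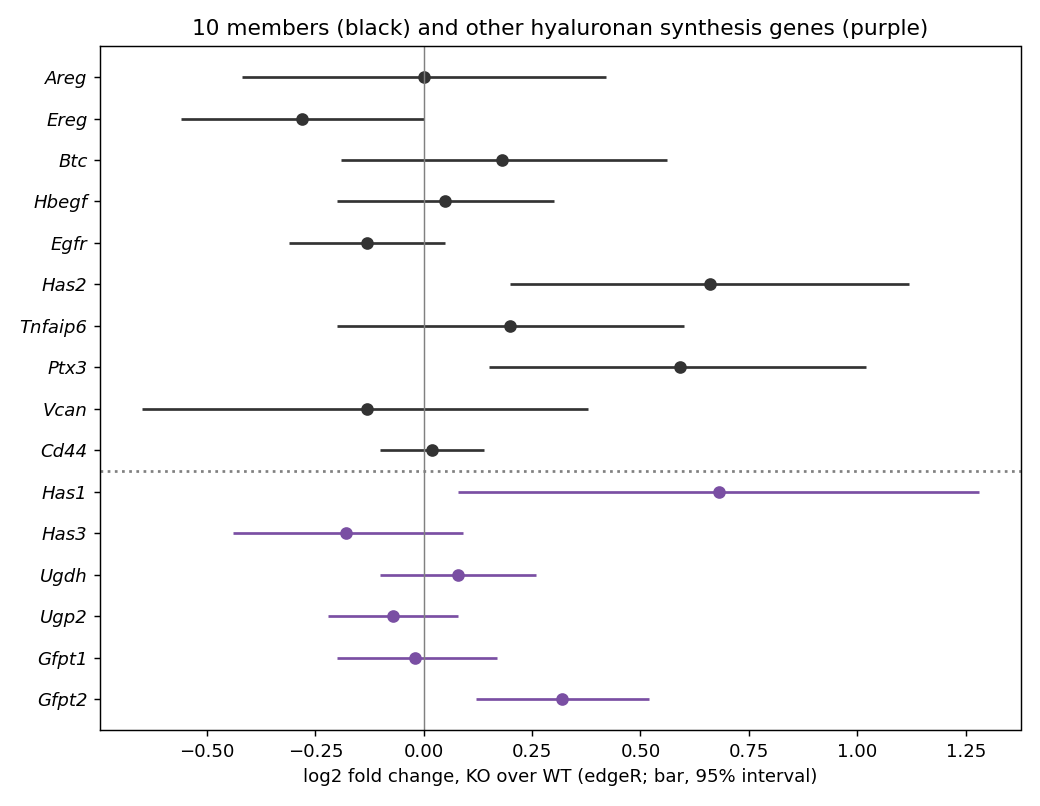
LogFC (KO over WT, horizontal axis, log2 scale) from edgeR with its 95% interval for the 10 genes (black) and for the other 6 genes of hyaluronan synthesis (purple), which are listed on the vertical axis. The intervals of *Has2*, *Ptx3*, *Has1* and *Gfpt2* lie above 0 and that of *Ereg* just below 0, before any adjustment for the number of genes tested.

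*Has2* (chr15:56528342-56557999, minus strand) makes the hyaluronan of the expanding cumulus mass. WT replicates 1 to 4 held 7.76, 8.11, 7.27 and 6.85 CPM. KO replicates 2 to 4 held 16.5, 10.7 and 8.28 CPM. The lowest KO library was just above the highest WT library, WT libraries were close together, and KO libraries spread widely with KO replicate 2 on top. WT averaged 7.50 ± 0.55 CPM and KO averaged 11.8 ± 4.25 CPM (SD, n = 4 and n = 3), a logFC of 0.66 (SE = 0.20) and a fold of 1.58 (95% interval 1.15 to 2.18). The unadjusted p was 0.0106 and the adjusted p was 0.377 in edgeR, with 0.0733 in DESeq2. Without KO replicate 2 the logFC was 0.34 and without KO replicate 4 it was 0.87. The unadjusted p stayed under 0.05 in 7 of 7 fits that left out a library, and none gave an adjusted p below 0.163. With the granulosa marker mean as a covariate the logFC was 0.70. Depth was 404 to 952 reads per library. The antisense gene *Has2os* overlaps *Has2* and had only 2 to 17 reads per library.

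*Ptx3* (chr3:66127331-66133226, plus strand) encodes pentraxin 3, and lies opposite *Veph1* on the other strand. WT replicates 1 to 4 held 28.3, 27.6, 21.7 and 17.8 CPM. KO replicates 2 to 4 held 44.7, 34.7 and 27.8 CPM. KO replicate 2 was again highest, and the only overlap was that KO replicate 4 lay below WT replicate 1. In TPM the same counts gave 15.5 to 24.4 in WT and 25.9 to 38.1 in KO, without overlap. TPM takes each library's estimated transcript lengths into account and leaves out the TMM factors. Those factors were 0.959 for WT replicate 1 and 1.018 for KO replicate 4. Which of these removed the overlap was not tested, and the share of all genes without overlap in TPM was not computed. With offsets for transcript length the logFC of *Ptx3* was 0.58. WT averaged 23.8 ± 5.01 CPM and KO averaged 35.7 ± 8.49 CPM (SD, n = 4 and n = 3). The fold was 1.5 (95% interval 1.11 to 2.03) with a logFC of 0.59 (SE = 0.19), with an unadjusted p of 0.0137 (edgeR, adjusted p = 0.399; DESeq2, adjusted p = 0.0989). Without KO replicate 2 the logFC was 0.39 (unadjusted p = 0.0722), and without KO replicate 4 it was 0.74. With the granulosa marker covariate the logFC was 0.59.

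*Tnfaip6* (chr2:51927998-51946698, plus strand) encodes TSG-6, the enzyme that loads heavy chains onto hyaluronan. WT replicates 1 to 4 held 79.0, 72.4, 70.4 and 68.5 CPM. KO replicates 2 to 4 held 100.4, 94.2 and 55.5 CPM. The KO libraries lay on both sides of the narrow WT range, 2 above it and 1 below it. The fold over all libraries was 1.15 (95% interval 0.873 to 1.51, adjusted p = 0.787). Single libraries decided this value: the logFC of 0.20 became 0.43 without KO replicate 4 (unadjusted p = 0.000335, adjusted p = 0.142, edgeR) and 0.04 without KO replicate 2 (unadjusted p = 0.819).

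*Cd44* (chr2:102641486-102732010, minus strand), the hyaluronan receptor gene, was at 76.5, 72.3, 70.2 and 68.3 CPM in WT replicates 1 to 4 and at 72.5, 72.7 and 73.2 CPM in KO replicates 2 to 4. It was the steadiest of the 10 genes, and the KO libraries lay inside the WT range. The fold was 1.01 (95% interval 0.931 to 1.10, adjusted p = 0.949), the narrowest interval of the 10. *Vcan* (chr13:89803431-89890814, minus strand) was the opposite case. It was at 739, 1332, 794 and 1187 CPM in WT replicates 1 to 4 and at 986, 709.9 and 1076 CPM in KO replicates 2 to 4. WT libraries formed a high and a low pair, KO libraries reached from just below the WT range to below the high pair, and the fold was 0.91 (95% interval 0.639 to 1.30, adjusted p = 0.906).

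Versican and CD44 are made in splice forms that differ in their central part, and the transcript estimates allow these to be set apart. The long transcript Vcan-203 has 15 exons and encodes 3354 residues. Vcan-206 lacks exon 7 (2880 bases), and Vcan-201 lacks exons 7 and 8 (8097 bases), the large exons that carry the glycosaminoglycan attachment regions. The forms differ in which exon follows exon 6 (its last bases at chr13:89860324-89860338), as the 15 bases on each side of the junctions show (GRCm39, chr13, minus strand; lower case, the end of the earlier exon; capitals, the start of the later exon).
Vcan-203, exon 6 to exon 7 (capitals, chr13:89853902-89853916): cctactgctttaaacCTAAACAGAATATAT
Vcan-206, exon 6 to exon 8 (capitals, chr13:89841606-89841620): cctactgctttaaacGTCGATTGAGTGATA
Vcan-201, exon 6 to exon 9 (capitals, chr13:89833297-89833311): cctactgctttaaacGACCTGATCTCTGCA

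Vcan-206 and Vcan-203 were the leading forms in all 7 libraries, at 48.3 to 114.7 TPM and 45.7 to 85.2 TPM, and Vcan-201 stayed at 3.60 to 5.72 TPM. A 3-exon transcript that covers only the 3′ end, Vcan-208, held 20.2 to 35.3 TPM. The share of Vcan-206 in the summed *Vcan* TPM was 37.9%, 48.8%, 40.0% and 46.5% in WT replicates 1 to 4 and 42.3%, 34.8% and 51.0% in KO replicates 2 to 4. Its share was largest where *Vcan* was high within each genotype, and the genotypes overlapped (43.3% ± 5.2 in WT, n = 4, against 42.7% ± 8.1 in KO, n = 3, SD; two-sided exact permutation p = 0.886, where 35 splits allow no p below 0.0286).

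For *Cd44* the 2 leading forms were Cd44-207 and Cd44-203. Cd44-203 joins exon 5 directly to exon 16 of the longest form Cd44-201 (19 exons), and Cd44-207 keeps exons 10, 11 and 13 to 15 of the variable region. The junctions after exon 5 (its last bases at chr2:102683360-102683374) are printed because they tell the forms apart (GRCm39, chr2, minus strand; capitals, the start of the later exon).
Cd44-203 (capitals, chr2:102658941-102658955): gcaccttggccaccaGAGATCGAGACTCAT
Cd44-207 (capitals, chr2:102672708-102672722): gcaccttggccaccaATATAGACAGAATCA

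Cd44-207 held 13.8 to 16.6 TPM and Cd44-203 held 9.98 to 16.3 TPM. The share of Cd44-207 was 56.6%, 54.2%, 56.9% and 51.3% in WT replicates 1 to 4 and 60.9%, 61.9% and 46.8% in KO replicates 2 to 4. KO replicates 2 and 3 lay above the WT range and KO replicate 4 lay below it, in which Cd44-203 was the larger form (54.7% ± 2.6 in WT, n = 4, against 56.5% ± 8.4 in KO, n = 3, SD; exact permutation p = 0.714). In the test of single transcripts, 20 of the 36 transcripts of the 10 genes had enough reads, and edgeR called 0 of them (background 0.00725%). At an unadjusted p under 0.05, 3 stood out, the single main transcripts of *Has2*, *Ptx3* and *Ereg* (background 4.48%). How Salmon's uncertainty in splitting reads between forms bears on these shares was not tested, since the estimates used here carry no such error.

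**Figure D3:**
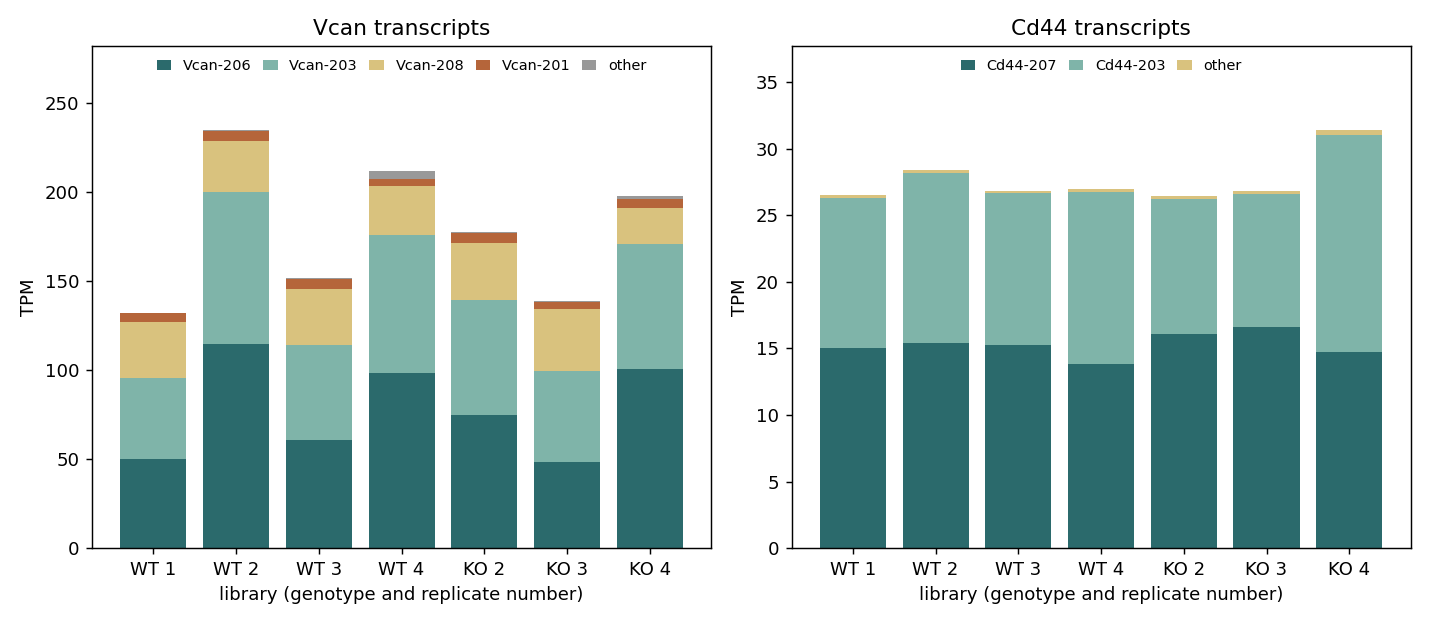
Stacked TPM (vertical axis) of the transcripts of *Vcan* (left) and *Cd44* (right) in each library (horizontal axis, genotype and replicate number). Vcan-206 and Vcan-203 form the larger part of every *Vcan* bar, and KO 4 is the only library in which Cd44-203 exceeds Cd44-207.

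The libraries did not rank alike for all 10 genes. KO replicate 2 was the highest library for *Has2*, *Tnfaip6* and *Ptx3*, and KO replicate 3 for *Areg*, *Btc* and *Hbegf*. WT replicate 4 was the lowest for *Btc*, *Has2*, *Ptx3* and *Cd44*, and KO replicate 4 for *Areg*, *Ereg*, *Egfr* and *Tnfaip6*. The mean standardised log2 CPM of the LH-induced genes *Areg*, *Ereg*, *Btc*, *Has2*, *Tnfaip6* and *Ptx3* was 0.18, 0.23, −0.07 and −1.11 SD in WT replicates 1 to 4 and 0.99, 0.69 and −0.91 SD in KO replicates 2 to 4. The 5 genes with the most similar profile were *Hnrnpl* (Pearson r = 0.995), *Snrnp48* (0.990), *Rbm39* (0.987), *1110038F14Rik* (0.986) and *Fam193b* (0.986), over the 7 libraries that all these genes share. *Hnrnpl*, *Snrnp48* and *Rbm39* encode RNA splicing factors. They were picked from 19233 genes over only 7 points, so r is a description here, with no test.

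**Figure D4:**
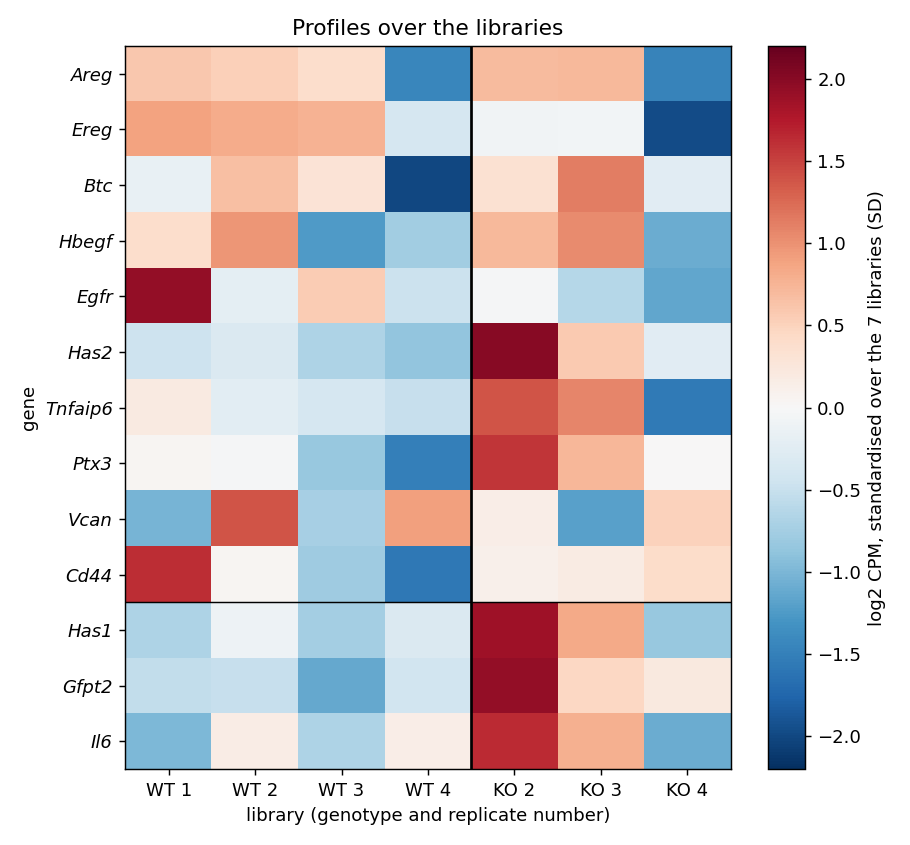
Log2 CPM of the 10 genes (upper block) and of *Has1*, *Gfpt2* and *Il6* (lower block), standardised for each gene over the 7 libraries (colour, in SD units; columns, libraries by genotype and replicate number). KO 2 is the darkest red column for *Has2*, *Tnfaip6*, *Ptx3*, *Has1*, *Gfpt2* and *Il6*, and WT 4 and KO 4 are blue for *Areg*, *Ereg* and *Btc*.

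Beyond the 10 genes, 9 lists held 91 related genes, of which 85 were tested. In edgeR 0 of 85 were called and in limma-voom 0 of 85. DESeq2, fitted to all 91, called 2, *Pgr* itself and *Snap25* (background 0.816%). An unadjusted p under 0.05 was seen for 14 of 85 (16.5%, background 8.94%), 5 with the higher and 9 with the lower mean in KO. Their median logFC was −0.01, and without *Pgr*, the gene with the null allele, 13 of 84 had an unadjusted p under 0.05 (15.5%). Without KO replicate 4 the count was 22, and without KO replicate 3 it was 9. The count over all genes moved the same way, to 2404 of 19513 and 1284 of 19528. With all libraries it was 1720 of 19233.

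Of 6 other EGF-family ligands tested, 0 were called and *Nrg2* alone had an unadjusted p under 0.05 (edgeR, background 8.94%). *Nrg2*, a neuregulin that binds ERBB3 and ERBB4, was at 2.46 to 2.90 CPM in WT and 1.95 to 2.15 CPM in KO (fold 0.78, 95% interval 0.634 to 0.948, adjusted p = 0.429). In TPM *Nrg2* overlapped, at 1.88 to 2.07 in WT and 1.36 to 2.46 in KO. With offsets for transcript length its unadjusted p was 0.29 in edgeR. *Tgfa*, which encodes TGF-alpha and was the most abundant of this list in TPM, was at 50.0 to 60.2 CPM in WT and 50.8 to 60.3 CPM in KO, with full overlap. *Epgn*, the epigen gene of the same cluster on chromosome 5, was at 1.98 to 3.86 CPM over both genotypes (fold 0.93, 95% interval 0.666 to 1.31).

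Among the other receptors, *Erbb2*, the partner that binds no ligand of its own, was at 44.5 to 48.3 CPM in WT and 46.4 to 51.4 CPM in KO (fold 1.07, 95% interval 0.982 to 1.18, adjusted p = 0.645), and 0 of 3 had an unadjusted p under 0.05. Of 8 genes of ligand shedding, 1 had such a p (background 8.94%). This was *Adam12*, a metalloprotease gene, at 43.9 to 54.7 CPM in WT and 36.4 to 44.0 CPM in KO (fold 0.83, 95% interval 0.711 to 0.958, adjusted p = 0.421). *Adam15*, the most abundant of that list on the TPM scale, was at 114 to 142 CPM in WT and 115 to 126 CPM in KO.

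Feedback regulators of EGFR signalling numbered 15, and an unadjusted p under 0.05 was seen for 2, both with the higher mean in KO and without overlap in CPM (13.3%, background 8.94% for such a p, and 3.93% for no overlap in that direction). *Dusp6*, whose phosphatase acts on ERK, was at 74.0 to 84.7 CPM in WT and 85.1 to 97.8 CPM in KO (fold 1.16, 95% interval 1.04 to 1.29, adjusted p = 0.386). In TPM its groups overlapped narrowly, at 49.2 to 57.0 in WT and 56.9 to 72.6 in KO. *Spry4*, named after its values were seen, was at 28.2 to 30.9 CPM in WT and 32.2 to 34.1 CPM in KO (adjusted p = 0.441). *Errfi1*, which encodes an inhibitor that binds the EGFR kinase, was the most abundant of the list in TPM and overlapped between genotypes, at 178 to 273 CPM in WT and 166 to 239 CPM in KO. The median logFC of the 15 was 0.01.

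Hyaluronan synthesis gave 2 of 6 genes with an unadjusted p under 0.05, both higher by mean in KO (background 8.94%, or 3.84% in that direction), and 0 called. *Gfpt2*, an enzyme gene at the entry of the hexosamine pathway that feeds hyaluronan synthesis, was at 49.3, 49.6, 45.4 and 50.2 CPM in WT replicates 1 to 4. In KO replicates 2 to 4 it was at 70.5, 56.9 and 55.0 CPM. All KO libraries were above all WT libraries (background 3.93% for no overlap in that direction), with KO replicate 2 on top as for *Has2*. The fold was 1.25 (95% interval 1.09 to 1.44, unadjusted p = 0.00549, adjusted p = 0.320, edgeR). *Has1*, a synthase gene named after its values were seen, was at 46.4, 56.7, 45.2 and 52.9 CPM in WT and at 117.5, 80.2 and 43.8 CPM in KO, where KO replicate 4 was the lowest of all 7 libraries (fold 1.60, 95% interval 1.06 to 2.43, adjusted p = 0.498). On the TPM scale *Has1* was 10.8 to 16.0 times as abundant as *Has2*. The third synthase gene, *Has3*, stayed at 0.722 to 0.896 TPM, where the genotypes overlapped. In CPM it was lower in KO without overlap, at 3.05 to 3.40 in WT and 2.55 to 2.97 in KO (background 5.12% in that direction). Its fold was 0.89 (95% interval 0.736 to 1.07, unadjusted p = 0.17, adjusted p = 0.718, edgeR). *Ugdh*, whose enzyme makes the glucuronate precursor and which was the most abundant of the list in TPM, was at 201 to 240 CPM in WT and 216 to 251 CPM in KO, with overlap.

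Of 10 genes of hyaluronan breakdown and uptake, 9 had a logFC below 0, with a list median of −0.08 beside −0.001 over all genes tested. An unadjusted p under 0.05 was seen for 1 of 10 (background 8.94%, or 5.1% with the lower mean in KO). That gene was *Lyve1*, the lymphatic hyaluronan receptor gene, at 31.0 to 43.1 CPM in WT and 24.9 to 34.3 CPM in KO (fold 0.80, 95% interval 0.645 to 0.988, adjusted p = 0.530). *Stab1*, a scavenger receptor gene and the most abundant of them on the TPM scale, overlapped at 141 to 182 CPM over all libraries. Among 12 tested genes of the hyaluronan-binding matrix, *Fbln1*, which encodes the versican-binding fibulin 1, was at 106 to 148 CPM in WT and 143 to 171 CPM in KO (fold 1.26, 95% interval 1.06 to 1.49, adjusted p = 0.401). The most abundant in TPM, fibronectin (*Fn1*), overlapped at 990 to 1236 CPM.

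Versican-cleaving proteases gave 2 of 6 with an unadjusted p under 0.05, *Adamts5* and *Adamts15*, both lower by mean in KO without overlap in CPM (background 5.1% for such a p in that direction and 5.12% for no overlap). *Adamts5* was at 34.1 to 44.9 CPM in WT and 25.7 to 33.2 CPM in KO (fold 0.76, 95% interval 0.630 to 0.920, adjusted p = 0.371). In TPM *Adamts5* overlapped, at 4.81 to 5.96 in WT and 3.52 to 4.97 in KO. *Adamts1*, the most abundant versican-cleaving protease gene here in TPM and a known PGR target in granulosa cells, was at 358 to 426 CPM in WT and 289 to 369 CPM in KO (fold 0.87, 95% interval 0.736 to 1.02, unadjusted p = 0.074, adjusted p = 0.591). Smooth muscle markers, as given above, were also lower in KO, and whether they bear on these values was not tested.

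Of 19 LH-response and cumulus signal genes, 4 had an unadjusted p under 0.05, all lower by mean in KO (21.1%, background 8.94%, or 5.1% in that direction). They were *Pgr*, the deleted gene, with *Snap25*, *Star* and *Edn2*. *Star*, which encodes the steroidogenic acute regulatory protein and was the most abundant of the list in TPM, was at 988 to 1916 CPM in WT and 849 to 975 CPM in KO (fold 0.70, 95% interval 0.501 to 0.979, adjusted p = 0.529). In TPM *Star* overlapped, at 601 to 1404 in WT and 608 to 667 in KO. Theca markers had the lower mean in KO for 7 of 7 as given above. The interleukin gene *Il6*, named after its values were seen because its profile resembles that of *Has1*, was at 4.63, 10.04, 5.71 and 9.89 CPM in WT replicates 1 to 4 and at 26.6, 15.1 and 4.33 CPM in KO replicates 2 to 4. The KO libraries again lay on both sides of the WT range, and the unadjusted p was 0.0775.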

How the data were processed

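Transcript files of 4 WT and 3 KO stromal libraries were used. The authors prepared stranded mRNA libraries, sequenced 100 bp pairs, quantified transcripts of GRCm39 (M26) with Salmon and deposited its estimated counts, TPM and effective lengths per transcript. Here, 137570 of 139225 transcripts (98.8%) were matched to GENCODE M39 and expected counts were summed per gene and rounded. WT and KO were compared with edgeR 4.0.16 (TMM, filterByExpr, quasi-likelihood, two-sided, Benjamini–Hochberg over 19233 genes) in R 4.3.3, the common biological coefficient of variation was 0.127, and the code was tested on simulated data. The study used DESeq2; DESeq2 1.42.0 and limma-voom (limma 3.58.1) were alternatives here, with median-of-ratios size factors, unfiltered genes, a minimum of 10 counts per library, offsets for transcript length, replicate number as a block, the mean of the granulosa markers as a covariate, and each library left out in turn. Depths were 47.4 M to 63.4 M reads. Taken for each of the 10 genes in the library with the fewest reads of that gene, counting error was 0.5% to 5.6%.

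Text names all 10 genes, the most abundant and the lowest-p gene of each related list, the 5 most similar profiles and the 2 leading transcripts per gene. Any other gene named was chosen after its values were seen. The genes, lists and tests were chosen with earlier results of these data known. Alternatives for the lowest-p related genes were added after seeing the data. Sequences were read from GRCm39. Replicates are pools of 3 mice. A KO replicate 1 was not analysed here.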

Additional observations from a re-analysis of the deposited data

Results flagged for a closer look

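WT replicate 4 stood apart from the other WT libraries for a pair of neighbouring ligand genes. For *Areg* it held 5.61 CPM, and for *Ereg* it held 313.4 CPM, in both cases with a gap to the next WT library that was larger than Dixon's 95% critical value for 4 samples allows. These were 2 of 21 groups examined, in which chance flags about 1 in 20, and the same libraries enter each of them. KO replicate 4 was also the lowest KO library for both genes, but groups of 3 were not examined in this way.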

How the results depend on the processing

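Alternative logFC values numbered 285, for the 10 genes and the lowest-p gene of each related list. Of these, 268 kept their direction and their side of the threshold, 11 changed sign and 6 passed the threshold only in the alternative. None of these genes was called in the main fit, so keeping their side says little, and changes in size were not counted. Fits that left out a library are included. In those the logFC ranged from 0.34 to 0.87 for *Has2* and from 0.04 to 0.43 for *Tnfaip6*. With a replicate block, 1 of the 10 genes was called, *Ptx3* (logFC = 0.67, adjusted p = 0.032). The sample labels do not say whether the replicate numbers pair the libraries. The deviations of same-numbered libraries correlated at −0.013 to 0.106, and 2 of 3 KO libraries correlated best with their own number. Correlations this weak cannot settle whether the libraries are paired. Over all genes the block raised the calls from 2 to 26 (0.135% of genes tested). The count of related genes called, 0 in edgeR, was 2 in DESeq2, 1 without a filter on low counts, 1 with at least 10 counts in every library, and 0 to 1 when a library was left out. Related genes with an unadjusted p under 0.05 numbered 9 to 22 when a library was left out, and 2 to 3 of the 10 genes did. Over all genes tested, 1166 to 2404 had such a p in these fits. The logFC of *Areg*, near 0, turned positive with median-of-ratios size factors (0.00), without a filter (0.01), with at least 10 counts in every library (0.01) and with the block (0.04), and ranged from −0.11 to 0.18 when a library was left out. That of *Vcan* was 0.01 with the granulosa marker covariate and −0.25 to 0.03 when a library was left out. The difference in share, in percentage points, ranged from −4.8 to 3.3 for Vcan-206 and from −0.9 to 6.6 for Cd44-207 when a library was left out. The causes were not tested. At 4 and 3 libraries, values of single pools decide several folds, and a p above the threshold does not show equal levels.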
